A study of Mus musculus with 7 samples.

Results

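Cytotoxic granule genes were followed in regulatory T (Treg) cells with and without Hpgd. The 9 genes (Gzma, Gzmb, Gzmk, Prf1, Nkg7, Srgn, Ctsw, Serpinb9 and Ccl5) were chosen by symbol, as granzymes, perforin and other genes of the granule or its cargo. All 9 were among the 15815 genes of the table, and all 9 passed the filter on low values, a mean normalized count of at least 10, under which 11787 genes were tested. YFP+ Treg cells had been sorted out of mesenteric lymph nodes (mLN) of Rag-/- mice, hosts without T and B cells of their own. Each host had been injected 8 weeks earlier with naive T cells and Treg cells, both WT, and with a YFP-marked Treg population that was either Hpgd-deficient (KO, 3 libraries) or WT (4 libraries). The labels give strain C57BL/6JRcc and the same line for all 7 libraries (Hpgd fl, Foxp3-YFP-Cre), in which Foxp3, the Treg transcription factor gene, drives YFP and Cre. The genotype of a library comes from its title. No age is given. Nothing in the labels states whether libraries of a group stem from different hosts, and the p-values therefore reflect the variation among these libraries, which may in part be technical.

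Cytotoxic granules are secretory lysosomes of killer T cells and natural killer (NK) cells. On contact with a target cell they release perforin, which forms pores in membranes, and granzymes, serine proteases that enter the target and can start its death. Serglycin, the proteoglycan core encoded by Srgn, holds the cargo in the granule, and Serpinb9 protects the cell that makes granzyme B from its own enzyme. Mouse Treg cells that have been activated can also make granzyme B, which has been described as one of their means of suppression.

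The promoters of 4 genes are shown because their transcripts gave different patterns below. Gzma and Gzmb had the highest Pearson's r of all pairs over the libraries, and Gzmb and Prf1 the highest Spearman's rho. Gzmk was highest in the library where Gzma and Gzmb were lowest. Each line holds the 250 bases before the start of transcription in RefSeq (GRCm38.p6), read along the gene's strand. Capitals mark matches on either strand to AGGTGT (the core of T-box sites), TGTGGT (Runx), TGANTCA (AP-1) or TGACGT (the core of cAMP response elements).
Gzma (chr13:113100982-113101231, minus strand): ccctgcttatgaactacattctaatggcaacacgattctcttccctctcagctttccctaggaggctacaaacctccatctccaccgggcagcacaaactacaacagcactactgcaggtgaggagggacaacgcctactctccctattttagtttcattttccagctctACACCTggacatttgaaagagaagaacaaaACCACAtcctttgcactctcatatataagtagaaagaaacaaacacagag
Gzmb (chr14:56262335-56262584, minus strand): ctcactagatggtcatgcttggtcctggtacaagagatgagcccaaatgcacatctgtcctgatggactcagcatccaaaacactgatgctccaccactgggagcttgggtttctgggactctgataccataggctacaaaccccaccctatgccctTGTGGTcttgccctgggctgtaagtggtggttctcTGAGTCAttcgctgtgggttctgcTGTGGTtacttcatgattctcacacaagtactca
Prf1 (chr10:61297586-61297835, plus strand): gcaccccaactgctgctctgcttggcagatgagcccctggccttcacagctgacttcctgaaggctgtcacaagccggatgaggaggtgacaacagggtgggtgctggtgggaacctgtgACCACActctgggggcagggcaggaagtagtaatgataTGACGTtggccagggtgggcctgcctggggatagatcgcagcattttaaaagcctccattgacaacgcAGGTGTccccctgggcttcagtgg
Gzmk (chr13:113180966-113181215, minus strand): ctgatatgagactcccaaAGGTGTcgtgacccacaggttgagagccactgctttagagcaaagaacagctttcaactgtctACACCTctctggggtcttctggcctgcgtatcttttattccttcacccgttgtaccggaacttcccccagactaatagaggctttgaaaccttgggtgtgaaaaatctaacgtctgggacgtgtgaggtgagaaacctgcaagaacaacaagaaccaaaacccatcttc

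The Gzmb window held 2 Runx matches, beginning 93 and 34 bases before the start, and an AP-1 match 58 bases before it. Gzma had a T-box match at 80 and a Runx match at 50 bases before the start. Prf1 held a Runx match at 130, a TGACGT match at 92 and a T-box match at 24 bases before the start, and Gzmk held 2 T-box matches, at 232 and 169. No matches overlapped in these 4 windows. The Gzmk window lies inside the gene's span in the GENCODE M21 annotation (113171608 to 113225908), which reaches further upstream. Other Gzmk promoters are therefore possible and were not examined. Of all 32851 promoter windows of this length, 11.8% held the T-box core, 14.0% the Runx letters, 6.75% the AP-1 letters and 6.47% TGACGT. Each match is therefore given as a description, and whether it is bound was not tested. The table gave a promoter for 7 of the 9 genes, all but Ctsw and Ccl5.

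The libraries held 4135733 to 9501939 reads in KO and 6129064 to 10622507 in WT. KO 3 was the shallowest and WT 4 the deepest. The deleted gene Hpgd was at 0.759, 2.42 and 5.52 normalized counts in KO 1 to 3, against 18.7, 9.96, 10.2 and 13.4 in WT 1 to 4, so the labels matched its direction. Its mean lay below the filter. Treg markers were present in every library: Foxp3 ranged from 107 to 142 normalized counts in KO and from 56.1 to 161 in WT. On the first principal component of the tested genes (35.1% of the variance) WT 2 and KO 3 lay at opposite ends, with scores of 81.9 and -61.0, and the other 5 libraries between -31.6 and 10.5.

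The granule genes spanned a wide range of levels (normalized counts by library, all 9 genes). To compare genes, normalized counts were divided by the length of the longest coding transcript in GENCODE M21, and these levels are means ± SD over all 7 libraries. Srgn was the most abundant, at 4380.0 ± 526 per kilobase. Nkg7, which encodes a granule membrane protein needed for release of the content, was at 3296 ± 1398, Gzmb at 2948 ± 1521 and Ctsw, a cysteine protease of killer cells, at 2890.1 ± 1012. Nkg7 was above Gzmb in 4 of 7 libraries and Gzmb above Ctsw in 3 of 7, so these 3 genes could not be ordered. Ccl5, a chemokine stored in granules of killer T cells, followed at 1834 ± 934. Gzma was at 886 ± 582. Serpinb9 lay lower, at 181 ± 42.7, in all 7 libraries below Gzma. The low end was formed by Prf1 at 33.1 ± 9.97 and Gzmk at 14.1 ± 19.5, with Prf1 above Gzmk in 6 of 7 libraries. Among 11061 tested genes with a length, 98.6% had a lower mean per kilobase than Gzmb and 32.1% a lower one than Prf1. Granzyme B transcripts were therefore abundant and perforin transcripts were not. With the median transcript length in place of the longest, Gzmb and Ctsw changed places and the other 7 genes kept theirs. In bulk samples, fewer cells with a transcript and less of it per cell cannot be told apart.

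**Figure D1:**
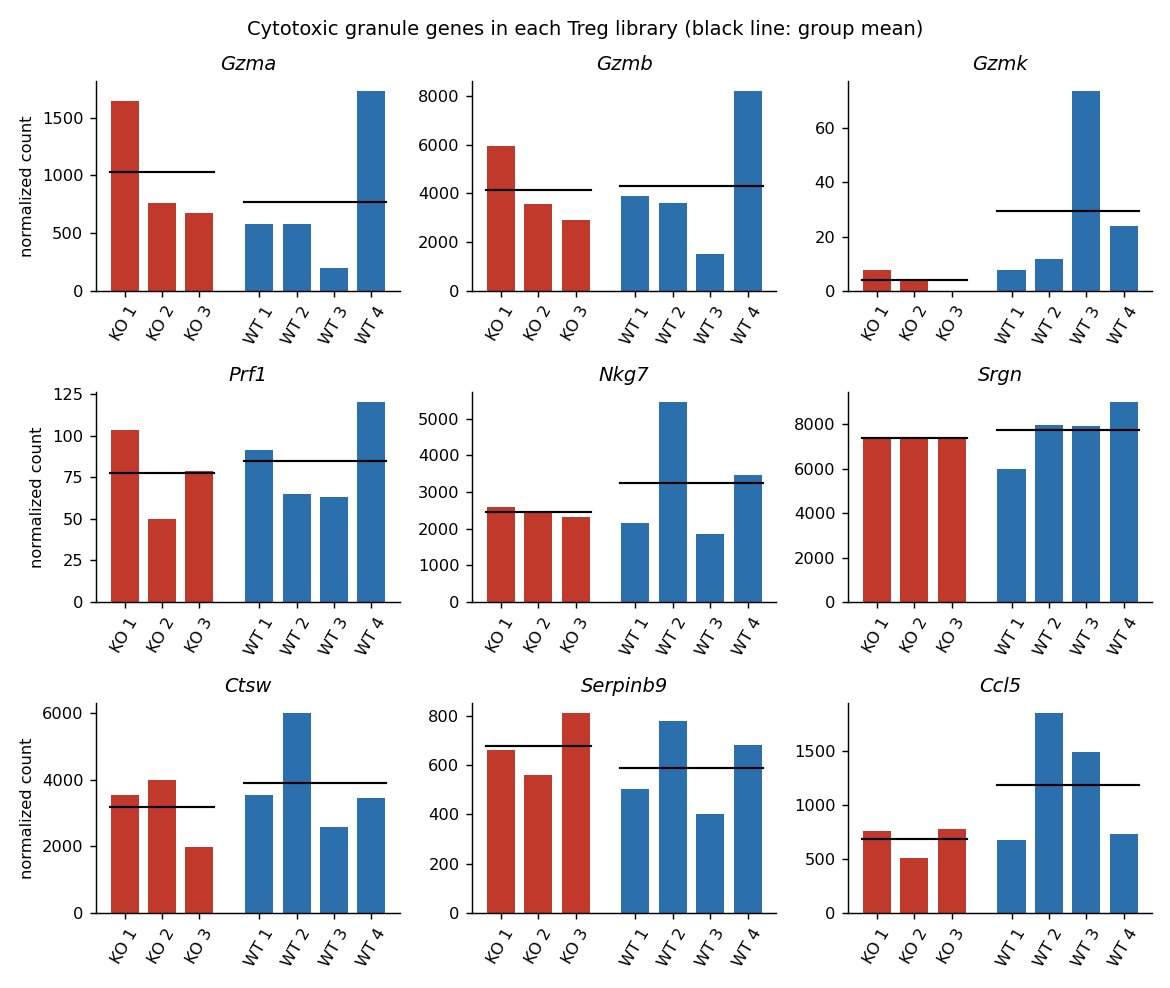
Normalized counts of the 9 granule genes in each library, KO in red on the left and WT in blue on the right, as bars, with a black line at the group mean and an axis of its own for each gene. Gzma and Gzmb have the same 2 high libraries (KO 1 and WT 4) and the same low one (WT 3), whereas Gzmk is highest in WT 3.

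Whether loss of Hpgd in Treg cells goes with a change of their transcripts is the comparison that the design makes. No granule gene passed the test. By limma on log2(normalized count + 1), 0 of the 9 genes reached an adjusted p of 0.05, and neither did any of the 11787 tested genes (0%). The voom fit of the recovered reads also called 0 genes. At an unadjusted p under 0.05 stood 1 of the 9 genes (Gzmk) and 211 of all tested genes (1.79%). The KO and WT values did not overlap for 1 of the 9 genes, again Gzmk, and for 430 tested genes (3.65%). In the direction of Gzmk, lower in KO, these shares were 1.01% at the unadjusted threshold and 1.93% without overlap. The estimates were above 0 in KO for 3 genes and below 0 for 6, with a median log2 fold change of -0.14. Over all tested genes the median was 0.01 and 48.2% of estimates were below 0. The sign of the 9-gene median rested on WT 4, since without that library it was 0.03. Fold changes below are KO against WT on the log2(normalized count + 1) scale, which understates the change of low genes, and the adjusted p was 0.9996 for each of the 9 genes.

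The granzymes came first. Gzmb encodes granzyme B, which cuts caspases and other proteins in the target (mm10, chromosome 14, 56258838 to 56262260, minus strand). Its level was 5935, 3573 and 2896 normalized counts in KO 1 to 3, against 3897, 3616, 1523 and 8192 in WT 1 to 4. The highest and the lowest library were both WT, and the KO values lay between them. The means were 4135 ± 1595 (SD, n = 3) in KO and 4307 ± 2798 (SD, n = 4) in WT. The log2 fold change was 0.12 (SE 0.43; 95% interval -0.82 to 1.06), while the arithmetic mean of KO was the lower one, the fit being on log values. The estimate was -0.18 without KO 1 and -0.30 without WT 3.

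Gzma encodes granzyme A, a tryptase of the same granules (chromosome 13, 113093825 to 113100981, minus strand). It was at 1649, 759 and 679 normalized counts in KO, against 581, 578, 201 and 1731 in WT. All 3 KO libraries lay above 3 of the 4 WT libraries, and WT 4 lay above all of them. The means were 1029 ± 539 (SD, n = 3) in KO and 773 ± 663 (SD, n = 4) in WT, and the log2 fold change was 0.69 (SE 0.54; interval -0.48 to 1.86). This estimate depended on single libraries: it was 1.21 without WT 4 (limma adjusted p = 0.9986), 0.18 without WT 3 and 0.29 without KO 1.

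Gzmk encodes granzyme K, another tryptase (chromosome 13, 113171608 to 113225908, minus strand), and was close to the floor of these libraries. It was at 7.59, 4.04 and 0 normalized counts in KO, against 7.70, 11.8, 73.5 and 23.9 in WT. The groups did not overlap, but KO 1 and WT 1 were almost level, and WT 3 alone stood far above the rest. The values rest on 10, 5 and 0 reads in KO and on 7, 13, 65 and 34 reads in WT. A count of 0 in KO 3, the shallowest library, allows up to 5.52 normalized counts (3 reads). The means were 3.88 ± 3.80 (SD, n = 3) in KO and 29.2 ± 30.3 (SD, n = 4) in WT. The log2 fold change was -2.60 (SE 1.06; interval -4.90 to -0.30). Pooled over libraries, the ratio of KO to WT per unit of depth was 0.176, with a 95% exact interval of 0.0954 to 0.302 for counting error alone. Without WT 3 the ratio was 0.308 (0.161 to 0.554), and the mean of Gzmk then fell under the filter. Without KO 3 the log2 fold change was -1.70 and its unadjusted p lay above 0.05, as it also did with voom, with the replicate block, without WT 4 and without both WT 2 and KO 3. Reads without molecular identifiers are not independent molecules, so these intervals cover counting error only.

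Of the other mouse granzymes on the list, Gzmc and Gzmm were in the table. Gzmc was at 29.3 ± 22.3 normalized counts in KO (SD, n = 3) and 31.0 ± 22.8 in WT (SD, n = 4), a log2 fold change of -0.07 (SE 0.73). Gzmm, at 1.84 to 15.4 in KO and 0 to 4.53 in WT, lay below the filter. Their values in KO and WT overlapped. The sources used here do not state how reads shared by related granzyme or serpin copies were divided, so values of close copies are uncertain to that extent.

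Perforin is what lets granzymes into a target, and its transcript was scarce. Prf1 (chromosome 10, 61297833 to 61304680, plus strand) was at 103, 50.1 and 79.1 normalized counts in KO, against 91.3, 65.2, 63.3 and 120.2 in WT. WT 4 and KO 1 were again the highest libraries of their groups, and the groups overlapped throughout. The means were 77.5 ± 26.6 (SD, n = 3) in KO and 85.0 ± 26.7 (SD, n = 4) in WT, and the log2 fold change was -0.14 (SE 0.39; interval -1.0 to 0.71). The sign turned without KO 2 (0.14) and without WT 4 (0.04).

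Nkg7 (chromosome 7, 43437073 to 43438249, plus strand) was at 2595, 2446 and 2334 normalized counts in KO, against 2165, 5454, 1857 and 3478 in WT. The KO libraries were close together, and the WT libraries lay on both sides of them. The means were 2458 ± 131 (SD, n = 3) in KO and 3238 ± 1636 (SD, n = 4) in WT, and the log2 fold change was -0.27 (SE 0.31; interval -0.94 to 0.40). WT 2 set this sign, and the estimate without it was 0.03.

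Srgn, the cargo-binding proteoglycan gene (chromosome 10, 62493833 to 62527451, minus strand), was the steadiest of the 9 genes. It was at 7427, 7345 and 7328 normalized counts in KO, against 5974, 7977, 7918 and 8981 in WT. The 3 KO libraries were nearly equal and lay inside the WT range. The means were 7367 ± 52.7 (SD, n = 3) in KO and 7713 ± 1257 (SD, n = 4) in WT, and the log2 fold change was -0.05 (SE 0.20; interval -0.49 to 0.39), which was 0.03 without WT 4.

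The protease gene Ctsw (chromosome 19, 5465043 to 5468507, minus strand) was at 3543, 3980.4 and 1999 normalized counts in KO, against 3537, 5993, 2597 and 3458 in WT. KO 3 was the lowest of all libraries and WT 2 the highest. The means were 3174 ± 1041 (SD, n = 3) in KO and 3896 ± 1461 (SD, n = 4) in WT, and the log2 fold change was -0.29 (SE 0.30; interval -0.93 to 0.36). Without KO 3 the estimate was 0.02.

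Serpinb9, the inhibitor gene (chromosome 13, 33003250 to 33017957, plus strand), was at 663, 557 and 809 normalized counts in KO, against 502, 778, 400.4 and 679 in WT. The highest library was KO 3, in which Ctsw was lowest, and the groups overlapped. The means were 676 ± 126 (SD, n = 3) in KO and 589.7 ± 170.2 (SD, n = 4) in WT, and the log2 fold change was 0.23 (SE 0.25; interval -0.32 to 0.78).

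The chemokine gene Ccl5 (chromosome 11, 83525778 to 83530518, minus strand) was at 766, 513 and 782 normalized counts in KO, against 679.8, 1853, 1497 and 737 in WT. WT 2 and WT 3 were high, and the other 2 WT libraries lay among the KO values. The means were 687 ± 151 (SD, n = 3) in KO and 1192 ± 577 (SD, n = 4) in WT, and the log2 fold change was -0.69 (SE 0.33; interval -1.41 to 0.04). The estimate was -0.91 without WT 1 (limma adjusted p = 0.9990) and -0.43 without WT 2.

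**Figure D2:**
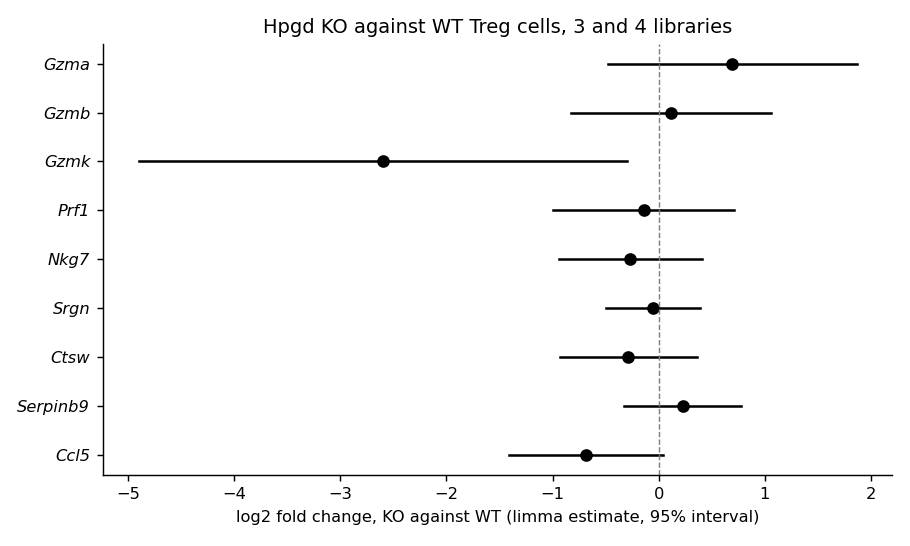
Log2 fold change of each granule gene, KO against WT, as the limma estimate (point) with its 95% interval (line), from 3 KO and 4 WT libraries. The intervals of 8 genes include 0 and that of Gzmk runs from -4.90 to -0.30 before any adjustment over genes.

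Gzma and Gzmb varied between libraries of one genotype more than most genes of their level did. The SD of log2 values within the groups was 1.07 for Gzma and 0.84 for Gzmb, and 99.4% and 97.2% of the 500 tested genes nearest in mean had a lower SD. It was 0.60 for Ccl5 (94.6% lower) and 0.55 for Nkg7 (92.4% lower). Srgn and Prf1 were on the other side, with SDs of 0.19 and 0.47 and 19.4% and 34.4% of like genes below them. For all 9 genes the SD of the normalized counts, not of log2 values, was larger in WT than in KO, by little for Prf1. This order depends on the scale. The ratio of the highest to the lowest library was larger in KO for Prf1 (2.06 against 1.90), and larger in WT for the other genes with a ratio in both groups. The 2 groups hold different numbers of libraries, and the share over all tested genes was not computed.

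Gzma and Gzmb had the highest Pearson's r of all pairs, although it did not pass after adjustment, and Gzmb and Prf1 had the highest Spearman's rho. Over the 7 libraries Pearson's r was 0.956 (exact permutation p = 0.00615; adjusted over 36 pairs, p = 0.221) and Spearman's rho 0.71 (exact permutation p = 0.0881; adjusted p = 0.75). None of the 36 pairs of granule genes passed after adjustment, and 1 pair had an unadjusted Pearson p under 0.05. Without WT 3 and WT 4, the libraries farthest from the median of Gzma, r was 0.830, and with the mean of each genotype subtracted it was 0.995. Of the 11786 other tested genes, 3 had a higher r with Gzmb than Gzma did, and 2 had a higher r with Gzma than Gzmb did. The r between Gzmb and Prf1 was 0.70 (exact permutation p = 0.0724; adjusted p = 0.734), with 0.547 without WT 3 and WT 4, and rho was 0.82 (exact permutation p = 0.0341; adjusted p = 0.75). Between Nkg7 and Ctsw r was 0.749 (exact permutation p = 0.0613; adjusted p = 0.734) and rho 0.61 (exact permutation p = 0.167; adjusted p = 0.75), but this rested on WT 2, without which r was 0.368, and without WT 2 and WT 4 it was 0.366. These 2 pairs stood out less among other genes. A higher r with Gzmb than Prf1 had was found for 395 genes, and with Prf1 than Gzmb had for 169. For Nkg7 against Ctsw it was 1108 genes (9.40%), and for Ctsw against Nkg7 1455 (12.3%).

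Gzmk and Gzmb had an r of -0.129, which was 0.753 without WT 3, so their relation rested on that library. The lowest coefficients belonged to Gzmk with Serpinb9 and to Gzma with Ccl5. Gzmk and Serpinb9 had an r of -0.624 (exact permutation p = 0.135; adjusted p = 0.734) and a rho of -0.43 (exact permutation p = 0.354; adjusted p = 0.943). Without KO 3 and WT 3, the libraries farthest from the median of Gzmk, their r was 0.559, so the relation did not hold without those libraries. Gzma and Ccl5 had an r of -0.538 (exact permutation p = 0.224; adjusted p = 0.840) and a rho of -0.57 (exact permutation p = 0.2; adjusted p = 0.8), and r was -0.263 without WT 3 and WT 4. The genotypes hold 3 and 4 libraries, too few for a coefficient within each. In all, 28 of the 36 coefficients were above 0 and 8 below, with a median of 0.26.

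**Figure D3:**
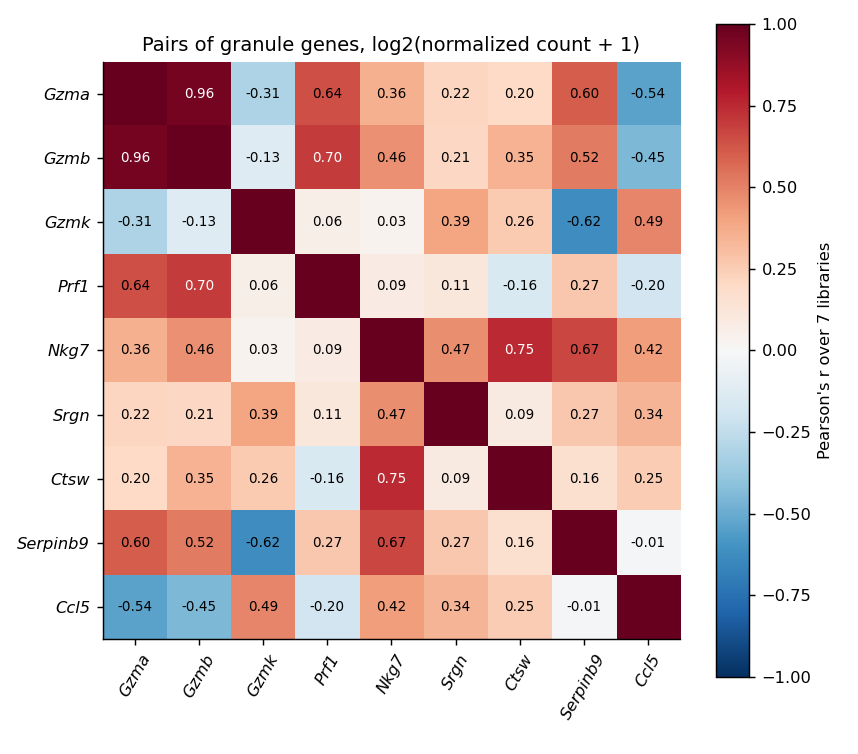
Pearson's r over the 7 libraries for each pair of the 9 granule genes on log2(normalized count + 1), with red above 0 and blue below. Gzma and Gzmb have the highest coefficient (0.956), and the coefficients of Gzmk with both lie below 0, though above 0 without WT 3 (0.432 with Gzma and 0.753 with Gzmb).

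Within each library the ratio of Gzma to Gzmb was compared, a choice made after these values had been seen. The ratio was 0.278, 0.212 and 0.234 in KO 1 to 3, against 0.149, 0.160, 0.132 and 0.211 in WT 1 to 4. The groups did not overlap, but the lowest KO value (0.212) and the highest WT value (0.211) were almost equal. The means were 0.241 ± 0.0334 (SD, n = 3) in KO and 0.163 ± 0.0341 (SD, n = 4) in WT, and the log2 ratio was 0.58 higher in KO (exact permutation p = 0.0571, two-sided; adjusted over the ratios of all 36 pairs, p = 0.411). With 3 against 4 libraries the smallest p this test allows is 0.0286. In all, 5 of the 36 ratios did not overlap between KO and WT, and 0 passed after adjustment. Apart from Gzma to Gzmb, these ratios all held Gzmk, which did not overlap by itself. No share over pairs of other genes was taken. WT 4 and KO 1, the highest for both Gzma and Gzmb, were also the deepest of their groups. The summed markers of myeloid cells, though not each of them, were lowest in WT 3. Their part in the ratio was not tested.

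**Figure D4:**
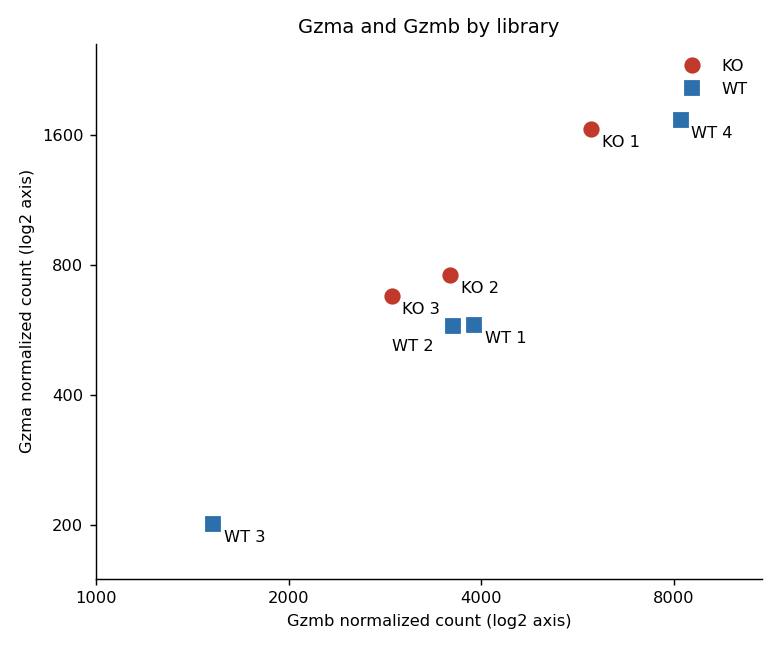
Normalized counts of Gzma against Gzmb by library on log2 axes, KO as red circles and WT as blue squares. KO 2 lies above WT 1 and WT 2 at a like Gzmb level, and the ratio is at least 0.212 in KO and at most 0.211 in WT.

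The relation to depth and to markers of other cells was measured for all 9 genes against the log2 number of reads and the log2 summed markers of NK, CD8 T and myeloid cells, 36 relations chosen after the values had been seen. None passed after adjustment. With the number of reads, Gzmb had an r of 0.663 (exact permutation p = 0.109; adjusted p = 0.461) and a rho of 0.82 (exact permutation p = 0.0341; adjusted p = 0.410), and r was 0.657 without KO 3 and WT 3. With the myeloid markers, Gzmb had an r of 0.791 (exact permutation p = 0.0369; adjusted p = 0.461) and a rho of 0.71 (exact permutation p = 0.0881; adjusted p = 0.529), and r was 0.457 without KO 2 and WT 3. For Gzma and the myeloid markers r was 0.776 (exact permutation p = 0.0425; adjusted p = 0.461) and rho 0.29 (exact permutation p = 0.556; adjusted p = 0.910), and r was 0.476 without KO 2 and WT 3. Ctsw and the CD8 markers had an r of 0.855 (exact permutation p = 0.00952; adjusted p = 0.343) and a rho of 0.79 (exact permutation p = 0.0480; adjusted p = 0.432), and r was 0.687 without WT 2 and WT 3. The CD8 markers did not all follow Ctsw. In KO 3, lowest for Ctsw, Cd160 (120), Cd8b1 (25.7) and Klrc1 (0) were at their lowest. Cd8a (16.5) and Crtam (95.6) were at their highest there. With the NK markers, Gzmk had an r of 0.551 (exact permutation p = 0.203; adjusted p = 0.610) and a rho of 0.82 (exact permutation p = 0.0341; adjusted p = 0.410), and r was 0.341 without KO 2 and KO 3. The NK markers did not move together. In WT 3, the highest library for Gzmk, Itga2 (235 of a sum of 461), Khdc1a (38.5) and Cd244 (35.1) were at their highest. Tyrobp (40.7), Fcer1g (19.2) and Klrb1c (3.39) were at their lowest there. Srgn and the NK markers had an r of 0.518 (exact permutation p = 0.228; adjusted p = 0.624) and a rho of 0.86 (exact permutation p = 0.0238; adjusted p = 0.410), and r was 0.968 without KO 2 and KO 3. Without WT 3, the library lowest in summed myeloid markers, r between Gzma and Gzmb was 0.897. KO 1, the library highest in that sum (2218), was kept. The part of myeloid cells in this relation was not tested.

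Markers of other cell types were read in the same libraries. Of 16 NK cell markers 14 were in the table, with a sum of 287 to 461 normalized counts in KO and 389 to 512 in WT. Of 10 tested, 4 had estimates above 0 and 6 below, and none passed. An unadjusted limma p under 0.05 was reached by 1 (Khdc1a, lower in KO), against 1.79% of all tested genes. Tyrobp and Itga2 were the most abundant of them, at 63.4 ± 25.4 and 152 ± 53.2 in KO (SD, n = 3) and 91.0 ± 46.0 and 135 ± 79.4 in WT (SD, n = 4). The NK receptor gene Ncr1 was at 0 to 15.2 in KO and 10.2 to 23.1 in WT. All 6 CD8 T cell markers were in the table, with a sum of 259 to 407 in KO and 243 to 580.3 in WT. Cd160 and Cd8b1 led them, and Cd8a was at 4.04 to 16.5 in KO and 0 to 9.96 in WT. Of 8 mast cell and basophil markers 3 were in the table (Cpa3, Ms4a2 and Mcpt8), each at 0 in 3 or 4 libraries, with sums of 1.84 to 15.9 in KO and 0 to 15.4 in WT. The 6 plasmacytoid dendritic cell markers summed to 1019 to 2043 in KO and 1597 to 1778 in WT, mostly from Ccr9, Bst2 and Irf8, and Siglech was at 28.8 to 40.5 in KO and 19.0 to 37.3 in WT.

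The 8 myeloid markers summed to 653 to 2218 in KO and 321 to 1453 in WT. Lyz2, a lysozyme gene of macrophages and neutrophils, was at 1274, 482 and 660.1 in KO and at 1090.1, 1043, 47.5 and 962 in WT, and was lowest in WT 3 like Gzma and Gzmb. Csf1r, a macrophage growth factor receptor gene, ranged from 33.1 to 182 in KO and from 71.3 to 249.9 in WT. The markers did not move together. Adgre1 and Cd68 were also lowest in WT 3 (17.0 and 37.3), but Csf1r was lowest in KO 2 and Itgam in WT 2. In WT 3, S100a8 (96.1) and S100a9 (41.8) were above the other WT libraries. The 5 B and plasma cell markers in the table, led by Cd79b and Jchain, summed to 348 to 534 in KO and 342 to 755 in WT. Most of each sum came from Cd79b, at 316 to 415 in KO and 306 to 737 in WT. Cd79a and Ms4a1 were at most 12.9 and 8.80, and Sdc1 was at 0 in 5 libraries. None of 6 symbols for gamma delta T cells matched the table, and these cells were not analysed here. The 5 erythroid markers, led by Hba-a2 and Hbb-b1, summed to 77.4 to 239 in KO and 642 to 2809 in WT, so the groups did not overlap. What part these cells had in the granule transcripts was not tested.

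Other genes of the granule pathway were read from lists of related genes. Of 68 genes 62 were in the table and 60 were tested. None passed (0 higher, 0 lower in KO), 0 had an unadjusted limma p under 0.05 (1.79% of all tested genes), and the groups did not overlap for 1 (Arl8b, a lysosome transport gene, named after its values were seen, at 605 to 684 in KO and 540.1 to 604 in WT). Of all tested genes, 1.71% did not overlap and were higher in KO. The estimates were above 0 for 31 and below 0 for 29, with a median of 0.00.

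The protease activation and serpin list covers the cathepsins that mature granzymes and inhibitors that restrain them. Of 9 tested members 6 had estimates above 0 and 3 below (median 0.03). Ctsb and Ctsd, lysosomal proteases, were the most abundant, at 4152 ± 573 and 2069 ± 630 in KO (SD, n = 3) and 4134 ± 1128 and 2175 ± 848 in WT (SD, n = 4). Serpinb1a, an inhibitor of neutrophil-type serine proteases, was at 279 ± 93.2 in KO and 204 ± 23.1 in WT (log2 fold change 0.40, SE 0.28). Its estimate was 0.17 without KO 3 and 0.68 without KO 2.

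Granule transport and exocytosis had 14 of 21 estimates above 0 and 7 below (median 0.09). Unc13d, which encodes the priming factor Munc13-4 that granules need for fusion, came nearest to passing of all 60 genes. It was at 734, 558 and 504 normalized counts in KO, against 927, 830.2, 848 and 663 in WT, and the log2 fold change was -0.46 (SE 0.21; limma adjusted p = 0.9996). Only KO 1 overlapped the WT range, lying above WT 4. The unadjusted p of Unc13d lay just above 0.05, and it lay below 0.05 with a pseudocount of 5, no filter, array weights or the replicate block, and without KO 1, WT 2 or WT 4. The actin regulator gene Coro1a was at 8900 ± 1442 in KO and 10690 ± 3462 in WT, and the kinesin gene Kif5b at 2937 ± 747 and 2473 ± 939.

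The list of death ligands, related cytokines and their receptors held 9 genes, 4 with estimates above 0 and 5 below (median -0.06). Not all of its genes belong to killing through death receptors. Ltb, a membrane-bound cytokine gene, was at 9976 ± 1831 in KO and 12396.5 ± 5434.5 in WT, Tnfrsf1b, a receptor gene for tumour necrosis factor, at 2502 ± 212 and 2531 ± 749, and Lta, which encodes lymphotoxin alpha, at 506 ± 265 and 687 ± 368. Of the 7 chemokine and receptor genes related to Ccl5, 2 had estimates above 0 and 5 below (median -0.12). Xcl1, another chemokine gene of killer cells, was at 188, 183 and 49.6 in KO, against 71.5, 725, 195 and 287 in WT, and WT 2 was its highest library as it was for Ccl5. Ccl3 was at 13.1 ± 10.3 in KO and 18.8 ± 2.82 in WT.

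Transcription factors of cytotoxic T cells had 5 of 13 estimates above 0 and 8 below (median -0.04). Id2 and Stat4 were the most abundant, at 2414 ± 593 and 1935 ± 287 in KO (SD, n = 3) and 2553 ± 119 and 1734 ± 195 in WT (SD, n = 4). The T-box factor gene Eomes was at 34.2, 27.5 and 0 in KO and at 19.8, 58.8, 31.7 and 40.1 in WT (log2 fold change -1.85, SE 1.06), and KO 3 had no read of the gene. Without KO 3 the estimate was -0.18.

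**Figure D5:**
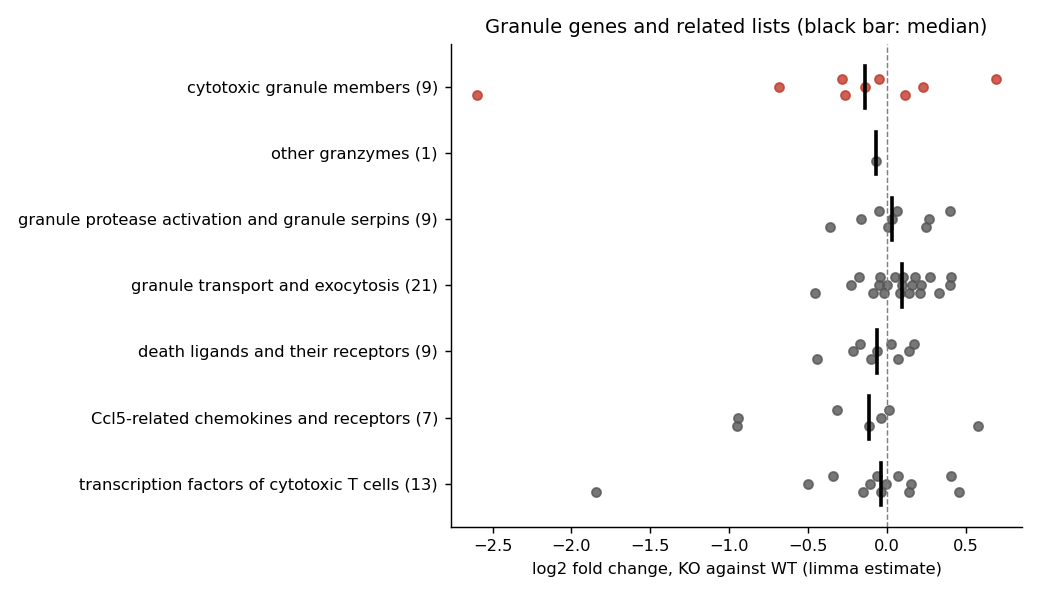
Log2 fold changes, KO against WT, of the 9 granule genes (red) and of the tested genes of 6 related lists (grey), with the number of genes in parentheses and a black bar at the median. The medians of the related lists lie between -0.12 and 0.09, and Gzmk at -2.60 is the lowest point.

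The genes most like each granule gene were taken as the 3 with the highest Pearson's r over the same 7 libraries, without predicted genes, pseudogenes and receptor segments. With 7 libraries and 11786 candidates such coefficients are high for any gene, and they are given as a description. Rras2, a small GTPase gene, headed the list for both Gzmb (0.985) and Gzma (0.974). For Gzmb it was followed by Zfp36 (0.962) and Arl4a (0.958), and for Gzma by Klhl15 (0.959) and Gzmb itself. Prf1 was most like Il18 (0.960), Fam160b2 (0.941) and Chst11 (0.935), and Gzmk most like Garnl3 (0.964), Ppp1r37 (0.962) and Brd3 (0.956). The highest coefficients of Nkg7 were with Pigx (0.989), Myc (0.978) and Btbd2 (0.975), and those of Ctsw with Relt (0.994), Ubtf (0.989) and Ociad1 (0.984). Srgn was most like Lrrc40 (0.955), Gmds (0.951) and Atg4a (0.95), Serpinb9 most like Ptgr2 (0.980), Cdc20 (0.976) and Lad1 (0.974), and Ccl5 most like Ano8 (0.967), Gas2l1 (0.964) and Usp20 (0.954). Apart from Gzmb for Gzma, no granule gene was among the 3 genes most like another.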

How the data were processed

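SmartSeq2 cDNA was made from 10 ng of RNA of each sample, per the labels' protocols. It carries no molecular identifiers or strand information, and was sequenced on a NextSeq 500. The submitters' processing notes name kallisto 0.44, DESeq2 and mm10, without roles. The deposited values are a normalized signal per gene and library. Their minimum is 1 and value minus 1 is a whole multiple of 1 step per library in 100% of values (within 0.01 of a read), so value minus 1 was used as the normalized count and divided by the step to recover reads.

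The comparison was fitted with limma 3.58.1 (trended eBayes prior, R 4.3.3) on log2(normalized count + 1) over all genes with a mean of at least 10, with Benjamini-Hochberg adjustment, and checked on simulated data. Count models were not used. Correlations used exact permutation in Python 3.11.15. Of 15815 symbols 15053 were found in GENCODE M21. The genes, lists and tests were chosen with earlier results of these data known. Named were the 9 genes, Hpgd, the 2 most abundant and the 1 further smallest-p gene of each pathway list, the 2 most abundant of each marker list, the 3 genes most like each member, and the 3 highest and 2 lowest pairs. A gene that this rule names is not reported here. Others are marked in the text or describe single libraries and markers.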

Additional observations from a re-analysis of the deposited data

How the results depend on the processing

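In 19 alternatives, 0 of the 9 granule genes and 0 of the 15 other named pathway genes passed. Of 169 alternative values of the granule genes 156 kept their sign, and of 282 for the pathway genes 250. The number of genes passing over the whole table was 0 in the fit reported and 0 with each library left out (range 0 to 0), 4 with array weights, 3 with the replicate block and 4 without both WT 2 and KO 3. No pair of granule genes passed in any alternative. Same-numbered KO and WT libraries deviated from their group means with correlations of 0.00814, -0.0357 and 0.0944. The closest WT library had the same number for KO 3, but not for KO 1 and KO 2. The labels state no pairing, and these correlations cannot exclude one. Under the replicate block Gzma had a log2 fold change of 1.21 (limma adjusted p = 0.463). The 9-gene median was 0.028, Prf1 0.039, Srgn 0.028, Gzmc 0.34 and Ctsb -0.042. Only WT has a replicate 4, so the block took WT 4 out of the contrast, and these estimates equal those without WT 4.

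With array weights the signs turned for Gzmb (-0.13), Ctsw (0.061), Gzmc (0.37), Ctsd (0.29), Kif5b (-0.085) and Stat4 (-0.013). Without both WT 2 and KO 3 they turned for the 9-gene median (0.065), Nkg7 (0.065), Ctsw (0.25), Gzmc (0.63), Ctsd (0.47), Kif5b (-0.22), Coro1a (0.040), Lta (0.37), Ltb (0.18), Ccl3 (0.069), Xcl1 (0.22), Eomes (0.061) and Stat4 (-0.017). With each library left out in turn, the range of the log2 fold change was -0.31 to 0.028 for the 9-gene median, -0.30 to 0.51 for Gzmb, -0.38 to 0.14 for Prf1, -0.49 to 0.028 for Nkg7, -0.17 to 0.028 for Srgn and -0.48 to 0.016 for Ctsw. For the pathway genes it was -0.64 to 0.46 for Gzmc, -0.042 to 0.21 for Ctsb, -0.22 to 0.23 for Ctsd, -0.022 to 0.49 for Kif5b, -0.82 to 0.051 for Lta, -0.52 to 0.038 for Ltb, -0.10 to 0.21 for Tnfrsf1b and -0.29 to 0.049 for Id2. The cause of these changes was not tested.

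Gzma, Gzmk, Serpinb9 and Ccl5 kept their sign in every alternative with a value, with ranges of 0.18 to 1.21, -3.25 to -1.67, 0.06 to 0.38 and -0.91 to -0.43. Gzmk has no value without WT 3 or with the filter at 50, where it falls below the filter. The ratio of Gzma to Gzmb, whose alternatives were chosen after seeing the data, stayed 0.47 to 0.71 higher in KO on the log2 scale with each library left out and 0.59 higher without both WT 2 and KO 3. The 2 count models planned were not run: the deposited values carry an offset of 1 and were classed as a normalized signal. The recovered reads entered the voom fit and the alternatives with other scaling. They also gave the pooled ratio of Gzmk and the numbers of reads per library. Depth limits low genes such as Gzmk, since 1 read in KO 3 is worth 1.84 normalized counts.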
